A study of Mus musculus with 5 samples.

Results

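The 9 transcription factors described here set dorsal and areal identity in the progenitors of the telencephalon: Pax6, Emx1, Emx2, Lhx2, Nr2e1, Nr2f1, Nr2f2, Dmrta2 and Dmrt3. They were taken by gene symbol from a table of 56196 gene rows, and all 9 were found once and had enough counts to be tested. RNA was sequenced from the forebrain of C57BL/6 mouse embryos at E12.5, from 3 samples labelled EedcKO and 2 labelled wild type, all untreated and described by the submitters as littermates. Eed is a core subunit of Polycomb repressive complex 2, the enzyme complex that methylates histone H3 at lysine 27. The sources used here do not name the driver of the deletion, its extent or the cells that carry it. In whole forebrain, fewer cells of a type and less RNA per cell cannot be told apart.

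The pallium is the dorsal telencephalon and gives rise to the cerebral cortex and hippocampus. Its progenitors carry opposed gradients of transcription factors: Pax6 is highest rostrolaterally, while Emx2, Dmrta2, Dmrt3 and Nr2f1 are higher caudally, and Emx1 and Lhx2 mark cortical progenitors broadly. Nr2e1, known as Tlx, helps to set the border with the subpallium, and Nr2f2 is found in the caudal ganglionic eminence, the ventral and caudal forebrain and the caudal cortex. The cortical hem, a medial source of WNT and BMP ligands, promotes the caudomedial factors, and many developmental transcription factors have promoters rich in CG dinucleotides, where Polycomb complexes are known to bind.

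The upstream promoter sequences of 3 of these factors are shown because they belong to the factor that fell, the factor that rose and one whose call depended on the wild-type library, and because they overlap no annotated exon of their gene. Each is the 250 bases before a RefSeq transcription start (GRCm38.p6, 5′ to 3′ on the gene's strand), and capitals mark every CG. They are the Nr2f2 window (chr7:70366747-70366996, minus strand), the Pax6 window (chr2:105668646-105668895, plus strand) and the Lhx2 window (chr2:38339031-38339280, plus strand).
Nr2f2: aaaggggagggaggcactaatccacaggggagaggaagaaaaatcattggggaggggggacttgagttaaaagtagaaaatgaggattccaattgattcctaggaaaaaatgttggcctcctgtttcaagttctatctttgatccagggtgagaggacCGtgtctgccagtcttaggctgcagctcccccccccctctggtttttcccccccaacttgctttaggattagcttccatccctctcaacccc
Pax6: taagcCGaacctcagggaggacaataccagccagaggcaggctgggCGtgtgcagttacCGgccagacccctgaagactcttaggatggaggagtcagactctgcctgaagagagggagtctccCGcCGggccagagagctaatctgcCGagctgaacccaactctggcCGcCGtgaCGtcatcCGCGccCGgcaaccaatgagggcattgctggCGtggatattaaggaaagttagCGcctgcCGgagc
Lhx2: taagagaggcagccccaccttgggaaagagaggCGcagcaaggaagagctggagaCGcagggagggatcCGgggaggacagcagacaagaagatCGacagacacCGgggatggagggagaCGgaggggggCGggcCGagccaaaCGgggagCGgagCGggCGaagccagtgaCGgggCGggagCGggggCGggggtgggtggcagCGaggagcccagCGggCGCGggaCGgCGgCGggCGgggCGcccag
The Nr2f2 window held 1 CG, the Pax6 window 15 and the Lhx2 window 25, against a median of 6 over 32851 windows of the same length in the RefSeq table. A count as low as that of Nr2f2 was found in 18.8% of all windows, and one as high as that of Lhx2 in 10.7%. The promoter table matched all 9 factors with 12 windows, which held from 1 CG (Nr2f2) to 30 (Emx1), and genes such as Nr2f2 can have other starts that are not shown. Dmrta2 met the same conditions as Lhx2, and its window, which held 19 CG, is not shown. None of the 12 windows held the homeodomain core TAATTA, the nuclear receptor half-site AGGTCA or the GLI site TGGGTGGTC on either strand. These motifs occurred in 4.84%, 14.0% and 0.225% of all windows, and no binding data bear on them here.

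The libraries held 4820630 to 5026381 counts, and 448 of 13989 tested genes (3.20%) passed the test between EedcKO and wild type. In figures given per library, the wild-type pair is always wild type 1 and then the library labelled wild type 2, and EedcKO values are those of EedcKO 1, 2 and 3. The test was edgeR's quasi-likelihood test with a Benjamini-Hochberg adjusted p under 0.05 over all tested genes. Eed (chromosome 7, 89954654 to 89980983, mm10) had 404 and 238 counts in the wild-type pair and 251, 233 and 247 in EedcKO. For this gene the library labelled wild type 2 thus had the level of the EedcKO libraries, which goes against its label. Shh and Fgf15, picked here after their values were seen, placed it with wild type 1. Both were called with that library counted as wild type, which favours such genes, so they cannot decide its genotype. Shh had 124 and 103 counts in the wild-type pair and 5, 1 and 3 in EedcKO. Fgf15 had 316 and 352 against 94, 87 and 92. Over all genes with enough counts, the wild-type pair differed by 8.06 times the sampling noise per gene. Wild type 1 differed from the EedcKO libraries by 7.76 to 10.4 times, and the library labelled wild type 2 by 8.88 to 9.79 times. The EedcKO libraries differed from each other by 2.55 to 4.61 times. For Dmrta2 and Dmrt3 the library labelled wild type 2 lay inside the EedcKO range. Its genotype was not tested, and results are given with and without it. The log2 fold change of Eed was -0.40 (edgeR adjusted p = 0.412), -0.75 without that library (edgeR adjusted p = 0.00968) and 0.043 without wild type 1. Counts over the whole gene may include exons that were not deleted. By Xist and Y-linked genes, EedcKO 2 and 3 were male and the remaining libraries female. Genotype and embryo sex can be separated only through EedcKO 1. Nothing in the labels ties each sample to an embryo of its own, so a p-value here reflects only sample-to-sample spread, which may be technical.

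Of the 9 factors, Nr2f2 fell and Pax6 rose in EedcKO, against 2.17% of all tested genes called lower and 1.04% called higher. The groups did not overlap for 5 of the 9 (Pax6, Emx1, Lhx2 and Nr2e1 higher, Nr2f2 lower), as for 33.8% of all tested genes. The fitted log2 fold change (EedcKO over wild type) was above 0 for 7 of 9, with a median of 0.39, against 51.6% and a median of 0.01 over all tested genes. Levels below are CPM (count values made comparable across libraries by TMM), and each mean ± SD covers the 2 wild-type or the 3 EedcKO samples. The median of the 9 was 0.51 without the library labelled wild type 2 and 0.02 without wild type 1.

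**Figure D1:**
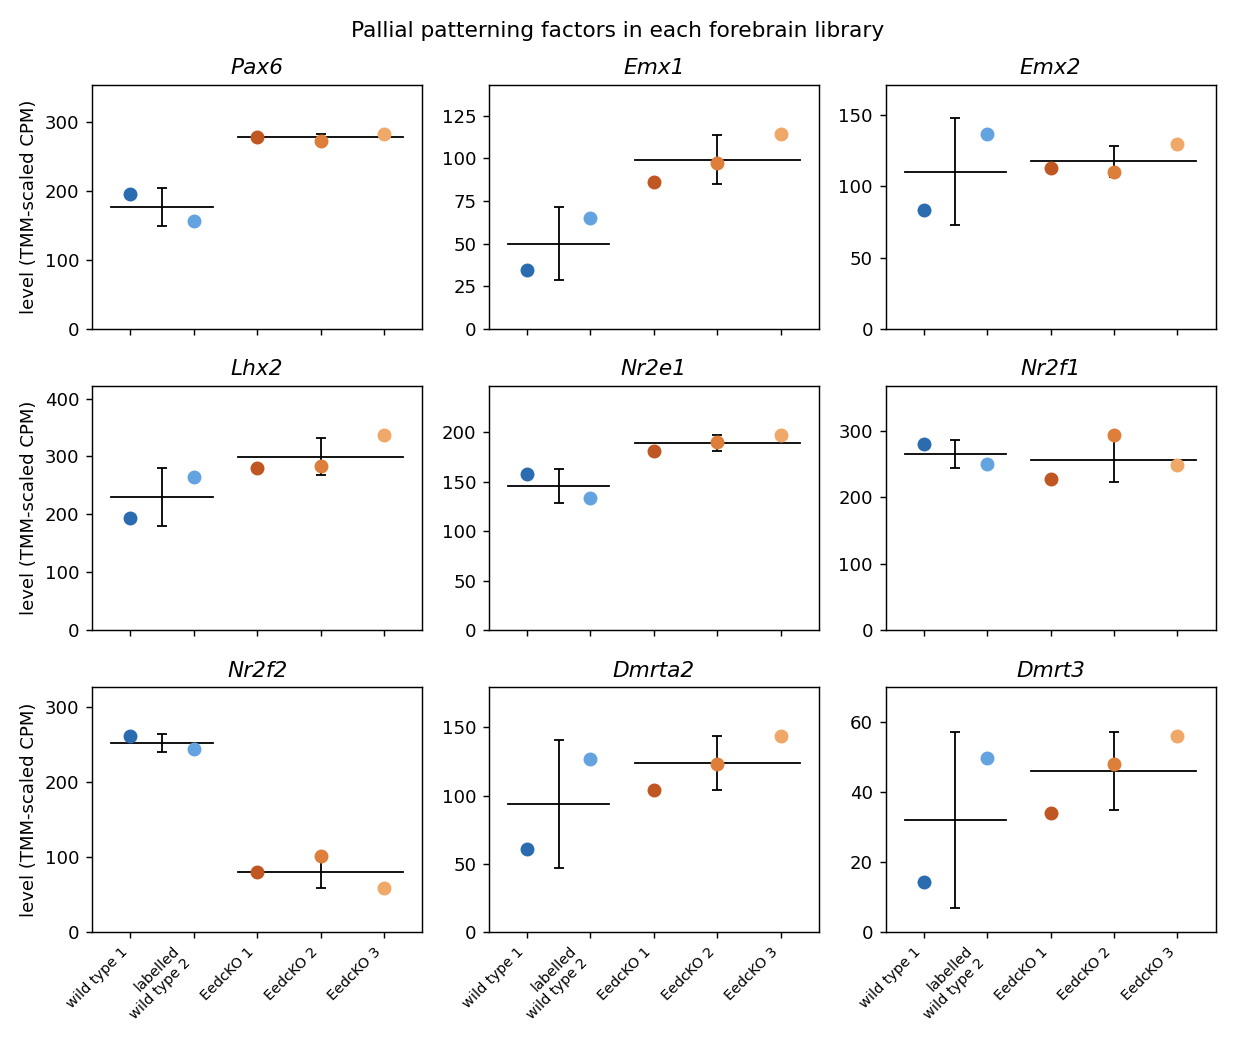
Level of each of the 9 factors (y axis, TMM-scaled CPM from 0, one scale per panel) in each of the 5 libraries (x axis). Points are libraries, horizontal lines group means and bars SD; Nr2f2 is at 244 to 261 CPM in wild type and 58.1 to 101 CPM in EedcKO, while for Emx2, Nr2f1, Dmrta2 and Dmrt3 the groups overlap.

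Nr2f2, also called COUP-TFII, is an orphan nuclear receptor (chromosome 7, 70351944 to 70366735, minus strand, mm10). Its counts were 1241 (95% Poisson interval 1173 to 1312) and 1203 (1136 to 1273) in the wild-type pair. Those in EedcKO were 379 (342 to 419), 490 (448 to 535) and 284 (252 to 319). As CPM these were 261 and 244 in wild type and 79.0, 101 and 58.1 in EedcKO. Both wild-type libraries stood above all 3 EedcKO libraries, and the lowest EedcKO level was in EedcKO 3. The mean fell from 253 ± 12.02 to 79.4 ± 21.5 CPM, a log2 fold change of -1.67 (SE 0.20, 95% interval -2.13 to -1.21, edgeR adjusted p = 0.0112). The wild-type mean was thus 3.18 times the EedcKO mean. Unlike the Eed count, Nr2f2 placed the library labelled wild type 2 with wild type 1. Nr2f2 was called with that library counted as wild type, so its level cannot decide the library's genotype. The log2 fold change was -1.71 without that library and -1.64 without wild type 1. The value was -1.49 without EedcKO 3 (edgeR adjusted p = 0.0782) and -1.68 with embryo sex as a covariate (edgeR adjusted p = 0.210), so that the call was lost in both.

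On the opposite strand, the noncoding gene B130024G19Rik overlaps 643 exonic bases of Nr2f2, 7.46% of its exons. B130024G19Rik fell as well, from 114 and 91 counts to 27, 24 and 13 (log2 fold change -2.26, edgeR adjusted p = 0.0156). Whether counting used strand is not stated, so reads of the shared bases cannot be assigned to either gene.

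Nr2f1, or COUP-TFI, the closest relative of Nr2f2 and a regulator of cortical areas (chromosome 13, 78188973 to 78199757, minus strand), had values that did not separate the groups. It stood at 280.2 and 250.1 CPM in the wild-type pair and at 227, 294 and 248.5 CPM in EedcKO. The lowest and the highest level were both in EedcKO libraries. The log2 fold change was -0.05 (SE 0.13, edgeR adjusted p = 0.902), with a 95% interval of -0.34 to 0.25, or 0.788-fold to 1.19-fold. Its antisense neighbour A830082K12Rik shares 123 exonic bases (2.42%) and had 332 and 293 counts in wild type and 336, 391 and 285 in EedcKO.

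The ratio of these receptors, which does not depend on library scaling, separated the groups. The log2 ratio of Nr2f1 to Nr2f2 counts was 0.10 and 0.04 in the wild-type pair, against 1.53, 1.54 and 2.10 in EedcKO. Scaled for length by TPM, Nr2f1 stood at 1.82 and 1.74 times Nr2f2 in wild type and at 4.88, 4.91 and 7.25 times in EedcKO. The groups did not overlap, and the mean log2 ratio was 0.07 ± 0.05 in wild type and 1.72 ± 0.33 in EedcKO, a difference of 1.65. With 2 samples against 3, the exact two-sided permutation test cannot give a p below 0.2, and it gave 0.2 (0.3 adjusted over the 3 pairs tested).

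**Figure D2:**
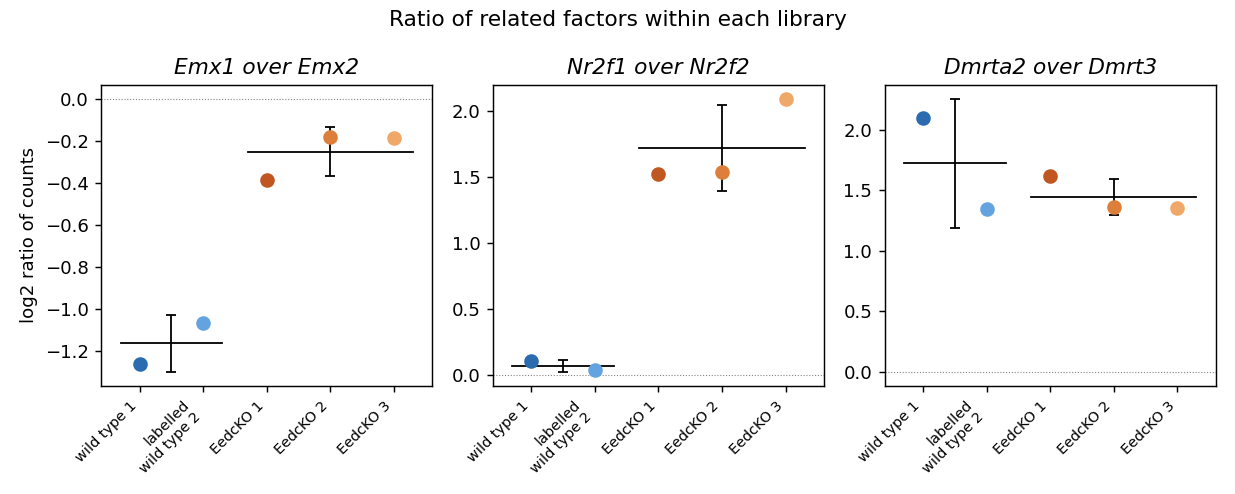
Log2 ratio of counts (y axis) between related factors in each library (x axis), for Emx1 over Emx2, Nr2f1 over Nr2f2 and Dmrta2 over Dmrt3. Points are libraries, lines group means and bars SD (2 wild-type, 3 EedcKO libraries); the groups are apart for Emx1 over Emx2 and Nr2f1 over Nr2f2 and overlap for Dmrta2 over Dmrt3.

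Nr2e1, a further orphan nuclear receptor that maintains neural stem cells (chromosome 10, 42561963 to 42583632, minus strand), had 158 and 134 CPM in the wild-type pair. It had 181, 189.9 and 197 CPM in EedcKO, all above both wild-type values. The log2 fold change of 0.38 (SE 0.10, 95% interval 0.14 to 0.61) had an edgeR adjusted p = 0.101. It was 0.49 without wild type 1 (edgeR adjusted p = 0.0249) and 0.27 without the library labelled wild type 2 (edgeR adjusted p = 0.165).

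Pax6, a paired-domain and homeodomain factor that keeps progenitors pallial and promotes neurogenesis (chromosome 2, 105668900 to 105697364, plus strand), rose. Its counts were 932 and 775 in the wild-type pair and 1332, 1318 and 1382 in EedcKO. These were 196 and 157 CPM in wild type and 277, 272 and 283 CPM in EedcKO. The 3 EedcKO libraries lay within 1.04-fold of each other, the narrowest spread among the 9 factors, and above both wild-type libraries. The mean went from 177 ± 27.5 to 277 ± 5.32 CPM (log2 fold change 0.65, SE 0.11, 95% interval 0.39 to 0.92, edgeR adjusted p = 0.0286). Pax6 stayed higher at 0.80 without wild type 1 (edgeR adjusted p = 0.00452) and at 0.51 without the library labelled wild type 2 (edgeR adjusted p = 0.0149). It was 0.64 to 0.66 when EedcKO 1, 2 or 3 was left out, and the call was lost each time (edgeR adjusted p of 0.0712, 0.110 and 0.156). It was also lost with embryo sex as a covariate (0.65, edgeR adjusted p = 0.267). The antisense gene Pax6os1 overlaps the Pax6 locus without sharing exonic bases and had 5 and 5 counts in wild type and 11, 13 and 11 in EedcKO (edgeR adjusted p = 0.224).

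Emx1, a homeodomain factor of cortical progenitors and excitatory neurons (chromosome 6, 85187438 to 85204462, plus strand), had the largest fitted increase of the 9 without passing the test. Emx1 stood at 34.9 and 65.3 CPM in the wild-type pair and at 86.2, 97.0 and 114 CPM in EedcKO. All EedcKO libraries were above both wild-type libraries, which themselves differed 1.87-fold. Its log2 fold change was 0.98 (SE 0.25, 95% interval 0.38 to 1.58, edgeR adjusted p = 0.0940). It was 1.51 without the library labelled wild type 2 (edgeR adjusted p = 0.00307) and 0.59 without wild type 1 (edgeR adjusted p = 0.0684). DESeq2 called it over all 5 libraries (0.98, DESeq2 adjusted p = 0.00491).

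Emx2, its relative and a factor of caudomedial cortex and hippocampus (chromosome 19, 59458372 to 59465357, plus strand), had 83.7 and 137 CPM in the wild-type pair. In EedcKO it had 113, 110.2 and 130.1 CPM, all between the wild-type libraries. The log2 fold change was 0.09 (SE 0.20, 95% interval -0.37 to 0.56, edgeR adjusted p = 0.874), and its sign changed to -0.23 without wild type 1. Emx2os, an antisense gene that shares 264 exonic bases with Emx2 (8.79%), had 48 and 117 counts in wild type and 98, 83 and 90 in EedcKO.

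Although each EMX gene differed between the wild-type libraries, their ratio did so much less. The log2 ratio of Emx1 to Emx2 counts was -1.26 and -1.07 in the wild-type pair and -0.39, -0.18 and -0.19 in EedcKO. In TPM, Emx1 stood at 0.573 and 0.656 times Emx2 in wild type and at 1.05, 1.21 and 1.21 times in EedcKO. The groups did not overlap, and the mean log2 ratio was -1.16 ± 0.14 in wild type and -0.25 ± 0.12 in EedcKO, a difference of 0.91 (exact two-sided permutation p = 0.2, the smallest possible; 0.3 adjusted over 3 pairs). The difference was 0.81 without wild type 1 and 1.01 without the library labelled wild type 2.

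Lhx2, a LIM homeodomain factor that selects cortical over hem fate (chromosome 2, 38339281 to 38369733, plus strand), had 194 and 265 CPM in the wild-type pair. In EedcKO it had 279, 283 and 337 CPM, with the groups narrowly apart. A log2 fold change of 0.39 (SE 0.15, 95% interval 0.03 to 0.75) had an edgeR adjusted p = 0.254. It was 0.64 without the library labelled wild type 2 (edgeR adjusted p = 0.0234) and 0.16 without wild type 1 (edgeR adjusted p = 0.483).

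The doublesex-related factors Dmrta2 (chromosome 4, 109978053 to 109983687, plus strand) and Dmrt3 (chromosome 19, 25610301 to 25623921, plus strand) are expressed in a high caudomedial to low rostrolateral gradient. Dmrta2 had 60.8 and 127 CPM in the wild-type pair and 104, 123 and 144 CPM in EedcKO. Dmrt3 had 14.1 and 49.9 CPM in the wild-type pair and 34.0, 48.1 and 56.0 CPM in EedcKO. For both genes wild type 1 was far below the other 4 libraries, and the library labelled wild type 2 lay inside the EedcKO range. For Dmrta2 the log2 fold change was 0.40 (SE 0.30, 95% interval -0.33 to 1.13, edgeR adjusted p = 0.590). For Dmrt3 it was 0.52 (SE 0.51, 95% interval -0.75 to 1.79, edgeR adjusted p = 0.699). Without the library labelled wild type 2 they were 1.03 (edgeR adjusted p = 0.0132) and 1.71 (edgeR adjusted p = 0.0147). Without wild type 1 they turned to -0.05 and -0.13. The log2 ratio of Dmrta2 to Dmrt3 was 2.10 and 1.35 in wild type and 1.62, 1.36 and 1.36 in EedcKO, with overlapping groups (exact two-sided permutation p = 0.8).

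**Figure D3:**
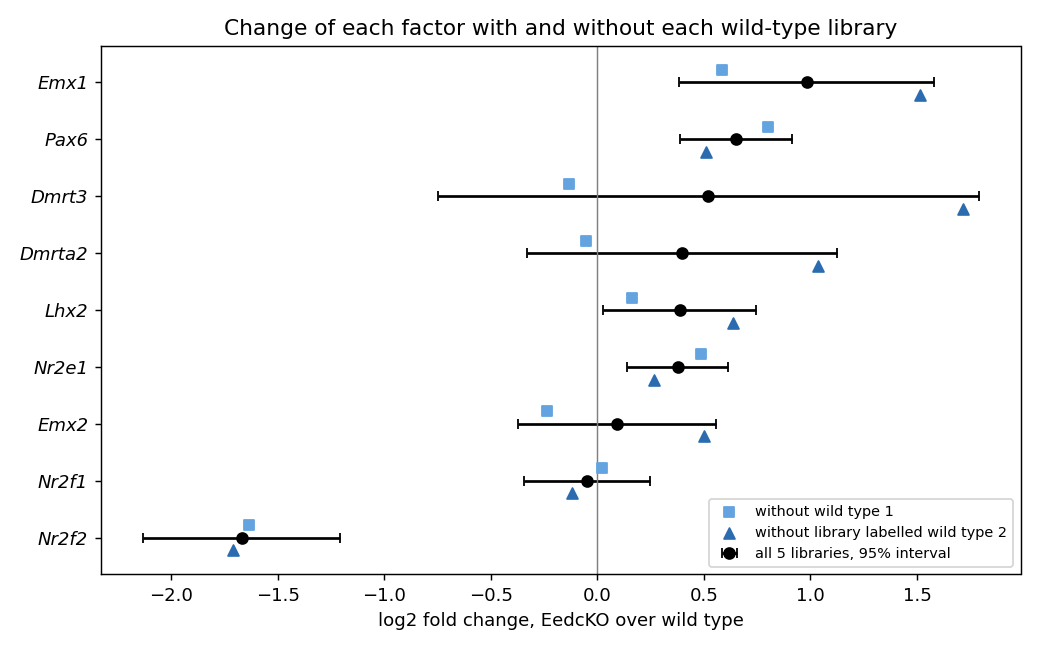
Log2 fold change of EedcKO over wild type (x axis) for each factor (y axis). Black points with 95% intervals use all 5 libraries, squares leave out wild type 1 and triangles leave out the library labelled wild type 2; Nr2f2 stays between -1.64 and -1.71, whereas Dmrt3 moves from -0.13 to 1.71.

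The choice of wild-type library thus set the reading of several factors. Against wild type 1 alone, 5 of 9 factors passed as higher (Pax6, Emx1, Lhx2, Dmrta2 and Dmrt3) and Nr2f2 as lower, where 2.07% and 4.12% of 14232 tested genes did. Against the library labelled wild type 2 alone, Pax6 and Nr2e1 passed as higher and Nr2f2 as lower, where 3.01% and 4.02% of 14409 tested genes did. In these fits the lone wild-type sample is assumed to vary like the EedcKO samples. The library labelled wild type 2 exceeded wild type 1 for Emx1, Emx2, Lhx2, Dmrta2 and Dmrt3, by 1.37-fold for Lhx2 to 3.54-fold for Dmrt3. It was slightly below wild type 1 for Pax6, Nr2e1, Nr2f1 and Nr2f2, at 0.802 to 0.935 times its level.

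Other settings moved the number of factors called. With library size alone 2 passed as higher (Pax6 and Nr2e1) and 1 as lower, where 4.80% of all tested genes passed (1.64% higher, 3.15% lower). With DESeq2 2 passed as higher (Pax6 and Emx1) and 1 as lower, where 4.85% of all tested genes did (1.86% higher). On log2(TPM + 1) without a filter on low values Nr2f2 alone passed, where 0.927% did (0.314% higher, 0.613% lower). Nr2f2 alone passed without EedcKO 1, where 1.89% did (0.701% higher, 1.19% lower), and without EedcKO 2, where 0.606% did (0.152% higher, 0.455% lower). The background without wild type 1 was 7.02% and that without the library labelled wild type 2 was 6.20%. Without EedcKO 3, and with embryo sex as a covariate, no factor passed with edgeR and 0.00% of all tested genes did (1886 and 1611 genes at an unadjusted p under 0.05).

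Genes of the cortical hem differed between the wild-type libraries in the same direction as those 5 factors, but some other lists also shifted. All 9 erythroid markers and 10 of 13 meninges and mesenchyme markers were higher in the library labelled wild type 2 than in wild type 1. Of 14 subpallial factors, 12 neuron markers and 8 endothelial markers, none was higher in it. All 17 listed hem genes were higher in the library labelled wild type 2 than in wild type 1, and none was at 0 in all libraries. Their summed level was 376 and 1054 CPM in the wild-type pair and 432, 517 and 224 CPM in EedcKO. The order differed in EedcKO 3, which had the lowest level of the 5 libraries for 13 of 17 hem genes. EedcKO 3 nevertheless had the highest level of the 3 EedcKO libraries for Pax6, Emx1, Emx2, Lhx2, Nr2e1, Dmrta2 and Dmrt3. None of 16 tested hem genes passed with edgeR (2 with an unadjusted p under 0.05), DESeq2 or limma-voom. With 1 wild-type library left out some passed, and the log2 fold changes depended on which. For Bmp4, Bmp7, Msx1 and Axin2 they were -2.11, -0.85, -1.13 and -0.80 without wild type 1. Without the library labelled wild type 2 they were -0.21, 0.60, 1.85 and 0.21. Over all 5 libraries, the 2 hem genes with the smallest p were Bmp4, a hem ligand (-1.45, edgeR adjusted p = 0.213), and Otx2, a factor of the choroid plexus and diencephalon (-1.47, edgeR adjusted p = 0.126). The part of hem tissue in the differences among libraries was not tested.

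**Figure D4:**
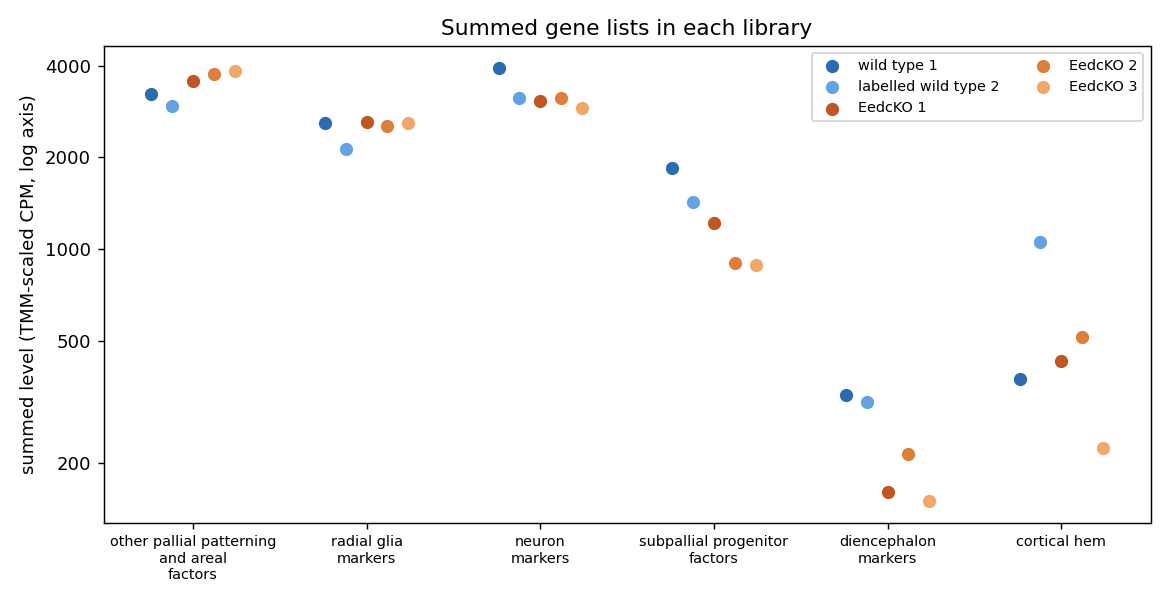
Summed level of 6 gene lists (TMM-scaled CPM, log axis) in each library, one colour per library. The library labelled wild type 2 stands at 1054 CPM for the cortical hem list against 224 to 517 in the other 4, and subpallial and diencephalon sums are lower in all 3 EedcKO libraries than in wild type.

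Other factors of pallial progenitors and areas moved beside Pax6. The list of these factors, like the others, was chosen with earlier results of these data known. Of its 25 tested genes 9 rose and 2 fell, where 1.04% of all tested genes were called higher and 2.17% lower. These 25 had a median log2 fold change of 0.27, against 0.01 for all tested genes. Neurog1, a proneural factor, rose from 12.2 and 19.7 CPM to 34.4, 50.8 and 48.3 CPM (log2 fold change 1.48, edgeR adjusted p = 0.0276). Bhlhe22, an areal factor of cortical neurons, rose from 44.8 and 59.4 CPM to 102, 137 and 121 CPM (1.20, edgeR adjusted p = 0.0156). Eomes, the intermediate progenitor factor that Pax6 is known to activate, rose from 105 and 133 CPM to 225, 284 and 289.6 CPM (1.16, edgeR adjusted p = 0.0137). Tfap2c, an AP-2 factor of cortical progenitors, rose from 46.5 and 56.6 CPM to 101, 107 and 124 CPM (1.10, edgeR adjusted p = 0.0109). In all 4 genes the groups were apart. Further calls, named after their values were seen, included Gli3, Otx1, Fezf2, Tbr1 and Neurog2 as higher and Pbx3 as lower (-0.55, edgeR adjusted p = 0.0396). Pbx3 lost its call without the library labelled wild type 2 (edgeR adjusted p = 0.0653). In that list 10 genes passed as higher and 2 as lower without wild type 1, where 3.01% and 4.02% of all tested genes did. Without the library labelled wild type 2, 10 passed as higher and 1 as lower, where 2.07% and 4.12% did. At the border of pallium and subpallium, the axon guidance gene Sema5a rose (1.20, edgeR adjusted p = 0.0314), the 1 call among 7 tested (2 without wild type 1).

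Genes that mark the subpallium, where Pax6 and the cortical factors are normally low, were also examined. Of 14 tested factors 3 fell and none rose, where 2.17% of all tested genes were called lower, and their median log2 fold change was -0.95. An unadjusted edgeR p under 0.05 was found for 10 of them and for 17.2% of all tested genes. Those that fell included Sp9, of interneuron precursors (-0.97, edgeR adjusted p = 0.0165), and Dlx5, of GABAergic neurons (-0.92, edgeR adjusted p = 0.0248). Without wild type 1 the number that fell was 2 (4.02% of all tested genes), and without the library labelled wild type 2 it was 5 (4.12%). Their list summed to 1845 and 1433 CPM in wild type and 1220, 900 and 891 CPM in EedcKO. EedcKO 1 stood apart in ventral genes, named after their values were seen. Nkx2-1, a factor of the medial ganglionic eminence, had 863 and 724 counts in the wild-type pair and 331, 7 and 6 in EedcKO, and Lhx6, of cortical interneurons, had 888 and 871 against 338, 172 and 107. EedcKO 1 is also the library on which the separation of sex from genotype rests. Diencephalon markers, a region where Nr2f2 is also expressed, summed to 333 and 317 CPM in wild type and 160, 214 and 149.7 CPM in EedcKO. Of 9 tested, Otp and Barhl2 fell. Otp, a hypothalamic factor, had 428 and 85 counts in the wild-type pair and 0, 1 and 1 in EedcKO. Barhl2 (-0.79, edgeR adjusted p = 0.0361) lost its call without the library labelled wild type 2 (edgeR adjusted p = 0.0510). Endothelial markers, another known site of Nr2f2, summed to 288 and 214 CPM in wild type and 253, 224 and 306 CPM in EedcKO. None of 8 tested endothelial genes had an unadjusted edgeR p under 0.05, and DESeq2 and limma-voom called none. The part of regional composition in the changes of Nr2f2 and Pax6 was not tested.

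Radial glia markers, which label the progenitors that carry most of these factors, summed to 2590 and 2126 CPM in wild type and 2617, 2527 and 2593 CPM in EedcKO. Set against that sum within each library, Pax6 had log2 ratios of -3.72 and -3.76 in wild type and -3.24, -3.22 and -3.20 in EedcKO. Nr2f2 had -3.31 and -3.12 in wild type and -5.05, -4.64 and -5.48 in EedcKO. By this measure the groups remained apart for Pax6, Emx1, Nr2e1 and Nr2f2 and overlapped for Lhx2, Emx2, Nr2f1, Dmrta2 and Dmrt3. The share of all tested genes apart by this measure was not computed, and by CPM it was 33.8%. The 1 call among 11 tested radial glia genes was Slc1a3, an astroglial glutamate transporter (0.68, edgeR adjusted p = 0.0156), where 1.04% of all tested genes were called higher. Neuron markers summed to 3941 and 3134 CPM in wild type and 3064, 3127 and 2897 CPM in EedcKO. Of 12 tested, 3 fell (Nefl, Syt1 and Mapt), where 2.17% of all tested genes were called lower. Meninges and mesenchyme markers summed to 440.2 and 699 CPM in wild type and 967, 491 and 701 CPM in EedcKO, and none of 13 tested passed with edgeR (4 with an unadjusted p under 0.05) or limma-voom, while DESeq2 called 1. In that list, some genes passed when 1 wild-type library was left out, in a direction that depended on which. None of the 4 tested eye, 9 erythroid and 8 microglia markers passed with edgeR, DESeq2 or limma-voom, and 2, 0 and 0 had an unadjusted edgeR p under 0.05. Of the eye markers, edgeR called Mitf lower without wild type 1 (adjusted p = 0.0441) and Vax1 lower without the library labelled wild type 2 (adjusted p = 0.0402). Eye and optic stalk markers, a territory of Pax6 and Lhx2, summed to 106 and 152 CPM in wild type and 72.7, 66.9 and 38.7 CPM in EedcKO. Otx2, which is also in the hem list, made up most of these sums except in EedcKO 3. It had 68.1 and 109.5 CPM in wild type and 41.5, 38.6 and 16.4 CPM in EedcKO. Only 4 of the 12 listed eye markers had enough counts to be tested.

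Cofactors with which these factors are known to act showed no call. Of 19 tested, such as the LIM cofactors Ldb1 and Ldb2 and the corepressor Kdm1a, none passed with edgeR, DESeq2 or limma-voom, and 3 had an unadjusted edgeR p under 0.05, as did 17.2% of all tested genes. Without wild type 1, edgeR called 2 higher and 1 lower, where 3.01% and 4.02% of all tested genes were. The 2 with the smallest p were Zfpm2, a binding partner of Nr2f2 (0.66, edgeR adjusted p = 0.0903), and the LIM-only gene Lmo1 (-0.39, edgeR adjusted p = 0.119).

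Levels between genes were compared per length, in TPM. In wild type the order by mean was Lhx2 (252 ± 56.7 TPM, SD, n = 2), Nr2f1 (251 ± 18.4), Nr2e1 (189.6 ± 21.0), Emx2 (177 ± 61.7), Dmrta2 (155 ± 78.3), Nr2f2 (141 ± 5.73), Emx1 (111 ± 48.2), Pax6 (72.8 ± 10.8) and Dmrt3 (63.2 ± 50.4). Of neighbours in that order, Nr2f1 and Nr2e1 alone did not overlap between libraries. In EedcKO the order was Lhx2 (331 ± 33.5 TPM, SD, n = 3), Nr2e1 (248 ± 8.55), Nr2f1 (244 ± 31.3), Emx1 (220.2 ± 29.7), Dmrta2 (205 ± 30.9), Emx2 (190.1 ± 16.4), Pax6 (115 ± 2.07), Dmrt3 (91.2 ± 21.5) and Nr2f2 (44.7 ± 12.2). There, neighbours did not overlap at the top (Lhx2 and Nr2e1) and among the last 4 factors from Emx2 down. Nr2f2 was thus the least abundant of the 9 in every EedcKO library, and Emx1 moved ahead of Emx2 in each of them. The sources used here do not state the gene lengths behind these TPM.

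Across the 5 libraries, likeness was measured as the root mean square difference of log2 CPM, each gene centred on its own mean, among 11432 tested genes whose log2 CPM averaged 3 or more. The genes nearest to Pax6 were Kat6b (0.03), Prdm16 (0.04) and Slc1a3 (0.05). Those nearest to Nr2f2 were the LIM factor gene Lhx1 (0.10), Efcab1 (0.19) and Cacna2d3 (0.19). Those nearest to Emx1 were Nrip3 (0.10), Aldoc (0.11) and Adamts17 (0.12), and to Lhx2 Xylt1 (0.02), Filip1 (0.02) and Itga5 (0.03). Dmrta2 lay nearest to Epop, Cachd1 and Lef1 (0.08 each), and Dmrt3 to Car14 (0.17), Msx3 (0.19) and Mt2 (0.20). Nearest to Emx2 were Tmem41a, Gpx3 and Trp53i13 (0.04 each), to Nr2e1 Ccdc134 (0.02), Samd4 (0.03) and Ntn4 (0.03), and to Nr2f1 Ccdc149 (0.02), Dus2 (0.02) and Xpc (0.03). Among the 9 themselves, Pax6 and Nr2e1 were the most alike pair (0.14), followed by Emx2 and Lhx2 (0.16). Nr2f2 was the farthest from all others, at 0.83 from Nr2f1 and 1.42 from Emx1.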

How the data were processed

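Polyadenylated RNA of 5 E12.5 forebrain samples was sequenced, and samples were grouped by their titles. The submitters' processing notes name HISAT2 2.2.0 and the build mm10. The sources used here do not state which tool counted reads, whether it used strand and with which annotation. The authors deposited whole-number counts per gene, not normalized, and TPM, which sum to the same total in every library. Rows without a symbol (28277 of 56196, with 2.01% to 2.16% of the counts) stayed out of library sizes and tests, and no column lay outside the series (0). Counts were tested in R 4.3.3 with edgeR 4.0.16 (filterByExpr, TMM, robust glmQLFit, glmQLFTest on the group) over 13989 genes, with adjusted p under 0.05 as the threshold. SE is the size of the log2 fold change over the square root of F, and 95% intervals use the t distribution. Poisson intervals cover counting error only, as no molecular identifiers are named. The script was tested on simulated counts. Library pairs differed by 2.55 to 10.4 times the sampling noise per gene, so none was a duplicate. Ratios used counts plus 0.5 and exact permutation tests in SciPy 1.17.1. Alternatives used DESeq2 1.42.0, limma 3.58.1 and the settings named in the closing section. The 9 factors and the gene lists were chosen with earlier results of these data known. Named genes were all 9 factors, Eed, and per list up to 4 called genes with the largest change, or the 2 smallest p; some genes that meet this rule are not reported here. Coordinates are from GENCODE on mm10 and promoters from RefSeq on GRCm38.p6.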

Additional observations from a re-analysis of the deposited data

How the results depend on the processing

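Nr2f2 kept its direction in all settings run and its call in 13 of 16. It lost the call with embryo sex as a covariate (-1.68), with the replicate number as a block (-1.49, edgeR adjusted p = 0.0530) and in 1 fit that left out a library, those fits ranging from -1.88 to -1.49. Its adjusted p over all alternatives ran from 5.29e-13 to 0.210. Pax6 kept its direction throughout and its call in 10 of 16 settings. It lost the call on log2(TPM + 1) with no filter on low values (0.66, limma adjusted p = 0.0562) and with the sex covariate (0.65). The call was also lost with the replicate block (0.65, edgeR adjusted p = 0.134) and without EedcKO 1, 2 or 3. Pax6 ranged from 0.51 to 0.80 with a library left out (adjusted p over all alternatives 3.28e-05 to 0.267). Emx1 passed with DESeq2 (0.98) and Nr2e1 with library size alone (0.37, edgeR adjusted p = 0.0437). With a library left out, log2 fold changes ranged from 0.59 to 1.51 for Emx1, -0.23 to 0.50 for Emx2, 0.16 to 0.64 for Lhx2, 0.27 to 0.49 for Nr2e1 and -0.16 to 0.024 for Nr2f1. They ranged from -0.052 to 1.03 for Dmrta2 and -0.13 to 1.71 for Dmrt3. The sign turned without wild type 1 for Emx2 (-0.23), Nr2f1 (0.020), Dmrta2 (-0.052) and Dmrt3 (-0.13), without EedcKO 1 for Nr2f1 (0.024), and without wild type 1 for the log2 ratio of Dmrta2 to Dmrt3 (0.10, range -0.66 to 0.10). The log2 fold change of Eed turned to 0.043 without wild type 1, with a range of -0.75 to 0.043. Of the 9 factors, 1 was called higher over all 5 libraries, 2 with library size alone and with DESeq2, and 0 with unfiltered TPM, the sex covariate or the replicate block (0 to 5 with a library left out). The number called lower was 1, and 0 with the sex covariate or the replicate block (0 to 1 with a library left out). Over all tested genes 448 passed, 679 with DESeq2, 174 with unfiltered TPM, and 0 with the sex covariate (edgeR, 1611 at an unadjusted p under 0.05) or the replicate block (edgeR, 2169). The range with a library left out was 0 to 1012, the 0 being without EedcKO 3 (edgeR, 1886 unadjusted). The labels do not pair the replicate numbers. Deviations from the group means correlated at -0.04 for the libraries numbered 1 and 0.13 for those numbered 2, and at 0.16 for wild type 1 with EedcKO 3. With only 2 wild-type libraries their deviations are mirror images, so these values cannot decide whether the numbers are paired. The causes of these losses were not tested. Each factor had at least 67 counts in every library.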

Other observations

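Relatives of the 9 factors by gene family changed in both directions, more often to lower levels. Of 22 listed relatives 15 were tested, and 4 fell and 1 rose, where 2.17% of all tested genes were called lower and 1.04% higher. The log2 fold change was above 0 for 3 of the 15 (20.0%, against 51.6% of all tested genes). Their median was -0.22, against 0.01 for all tested genes. The LIM homeodomain genes that fell were Lhx8, a factor of ventral cholinergic neurons (-4.77, edgeR adjusted p = 0.0384), Lhx5 (-1.82, edgeR adjusted p = 0.00937) and Lhx1 (-1.68, edgeR adjusted p = 0.0112), the latter pair known from Cajal-Retzius cells. Lhx1 had 46.9 and 37.7 CPM in the wild-type pair and 14.2, 15.5 and 9.82 CPM in EedcKO. Lhx8 had 407 and 328 counts in the wild-type pair and 35, 1 and 4 in EedcKO, and its call was lost without wild type 1 (edgeR adjusted p = 0.150) and without the library labelled wild type 2 (edgeR adjusted p = 0.151). In the DMRT family Dmrtb1 fell from 40.2 and 35.3 CPM to 10.8, 8.67 and 10.2 CPM (-1.93, edgeR adjusted p = 0.00554). Dmrta1, named here after its value was seen, rose from 21.0 and 21.9 CPM to 54.6, 41.1 and 48.7 CPM (1.16, edgeR adjusted p = 0.0138). Unlike Dmrta2 and Dmrt3, Dmrtb1 and Dmrta1 had their call also without wild type 1 and without the library labelled wild type 2. Whether the DMRT genes changed unequally was not tested.

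Of 10 tested genes listed for the anterior signalling centre, 2 fell and none rose, where 2.17% of all tested genes were called lower. The list includes FGF ligands and feedback inhibitors, Six3 and the ventral morphogen gene Shh. Fgf8 itself had too few counts to be tested, with 13 and 9 in the wild-type pair and 1, 3 and 2 in EedcKO. Fgf15, known to counteract Fgf8 in cortical patterning, fell from 66.5 and 71.4 CPM to 19.6, 18.0 and 18.8 CPM (-1.87, edgeR adjusted p = 0.00359), and Shh fell from 124 and 103 counts to 5, 1 and 3 (-5.19, edgeR adjusted p = 0.00455). The list's summed level was 429.9 and 330.0 CPM in wild type and 270.4, 192 and 202 CPM in EedcKO.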
